A study of Mus musculus with 4 samples.

Results

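The genes described here are 9 markers used to place a mammary tumour cell by subtype and lineage: Egfr, Erbb2 and Erbb3 (growth factor receptors), Esr1, Pgr and Prlr (hormone receptors), and Gata3, Foxa1 and Elf5 (transcription factors of the luminal lineage). They were chosen by name. A probe set, the unit an array reads as 1 value, counted for a gene only where the platform annotation names that gene alone, and the probe set with the highest mean over 4 arrays stood for the gene. This gave values for 8 of the 9 genes, out of 22180 genes with such a probe set. Prlr is named by no probe set of the annotation and was not analysed here.

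RNA came from EO771, a single mouse mammary carcinoma cell line, grown in RPMI medium for 24 hours to a confluence of at least 70%. One group received recombinant mouse A-FABP, the adipose fatty acid binding protein encoded by Fabp4, at 100 ng/ml (2 arrays), and the other received PBS (2 arrays). The sources used here do not give the time between treatment and harvest. Titles call the arrays biological replicates but do not say whether the cultures were grown separately, and p-values measure only the spread between these arrays. A free-text label of the control arrays also mentions A-FABP, in contrast to their titles, their source names and the design text, and groups follow the titles. The comparison asks whether the carcinoma cells express these markers differently after exposure to the protein.

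As background, EGFR, ERBB2 and ERBB3 are receptors of 1 family that act in pairs. EGFR binds EGF-like ligands, ERBB2 has no known ligand of its own, and ERBB3 binds neuregulins but has little kinase activity and signals through its partners. The oestrogen receptor ERα (Esr1) and the progesterone receptor (Pgr) are ligand-activated transcription factors of hormone-sensing luminal cells, and Pgr is itself a classical oestrogen target. GATA3 and FOXA1 act with ERα in luminal cells, and ELF5 drives the alveolar programme of milk-producing cells downstream of the prolactin receptor. In clinical use ERα, the progesterone receptor and ERBB2 divide breast cancers into subtypes.

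Values are log2 expression values made by the authors with RMA, which corrects background, normalizes arrays and summarises probes. On the 4 arrays the lower quartile of all probe sets was 4.80 to 4.87, the median 5.95 to 6.03 and the upper quartile 7.83 to 7.91. These marks are used below to place a value on its array. They differed by group: the medians were 5.984 and 5.95 on the A-FABP arrays and 6.029 and 6.035 on the PBS arrays. Lower quartiles were also lower with A-FABP (4.822 and 4.801 against 4.864 and 4.87). Upper quartiles were higher (7.883 and 7.911 against 7.83 and 7.842). What produced this was not tested. The marks cover all probe sets, of which 16010 name no gene, so they are not the marks of named genes alone. Probes differ in how well they bind, so brightness does not rank 1 gene's transcripts against another's, and no detection calls were used. Differences are A-FABP minus PBS on the log2 scale, from a limma fit over all 41345 probe sets, with Benjamini-Hochberg adjustment over all of them and a call at an adjusted p under 0.05. Of those probe sets 0 were called (0%), with a lowest adjusted p of 0.296, while 6258 had an unadjusted p under 0.05. No gene below is therefore called higher or lower, and all are given as values. With 2 arrays a group, the smallest two-sided p that an exact permutation test allows is 0.333.

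Among the ERBB receptors, Erbb3 had the largest difference between the group means and Erbb2 had overlapping groups. Erbb3 lay at 7.36 and 7.74 on the A-FABP arrays and at 7.07 and 7.28 on the PBS arrays. Both A-FABP arrays were above both controls, although the gap between the A-FABP arrays (0.38) was as large as the difference between the group means. That difference was 0.38 ± 0.17 (SE, 2 arrays per group; 95% CI -0.10 to 0.86), or 1.30-fold, with a limma adjusted p of 0.387. It was 0.19 without A-FABP replicate 2 and 0.57 without A-FABP replicate 1. The alternatives that could move it were 3 normalizations and 4 fits with an array left out, and in these 7 it lay above 0.

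Egfr, the receptor for EGF and TGF-alpha, had tight replicates. It lay at 8.01 and 8.05 on the A-FABP arrays and at 7.91 and 7.86 on the PBS arrays. All 4 values were above the upper quartile of their array, and the A-FABP arrays lay above the controls. The difference was 0.14 ± 0.08 (SE; 95% CI -0.08 to 0.36; limma adjusted p = 0.455), larger than the gaps between replicates (0.04 and 0.05). Probe sets of similar brightness, within 0.5 of its mean level, had a median difference of 0.10. For Erbb3 that median was 0.07.

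Erbb2, which encodes HER2, lay at 7.82 and 7.69 on the A-FABP arrays and at 7.62 and 7.77 on the PBS arrays. The groups overlapped, and the values were above the median and, on each array, below the upper quartile. The difference of 0.06 ± 0.10 (SE; 95% CI -0.23 to 0.35; limma adjusted p = 0.810) was smaller than the gap between replicates in either group, 0.13 and 0.15, and turned to -0.02 without PBS control replicate 1. Erbb4, the remaining receptor of the family, was dim, at 5.06 and 5.05 on the A-FABP arrays and at 5.05 and 4.96 on the PBS arrays. Its difference was 0.05 (95% CI -0.18 to 0.28).

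**Figure D1:**
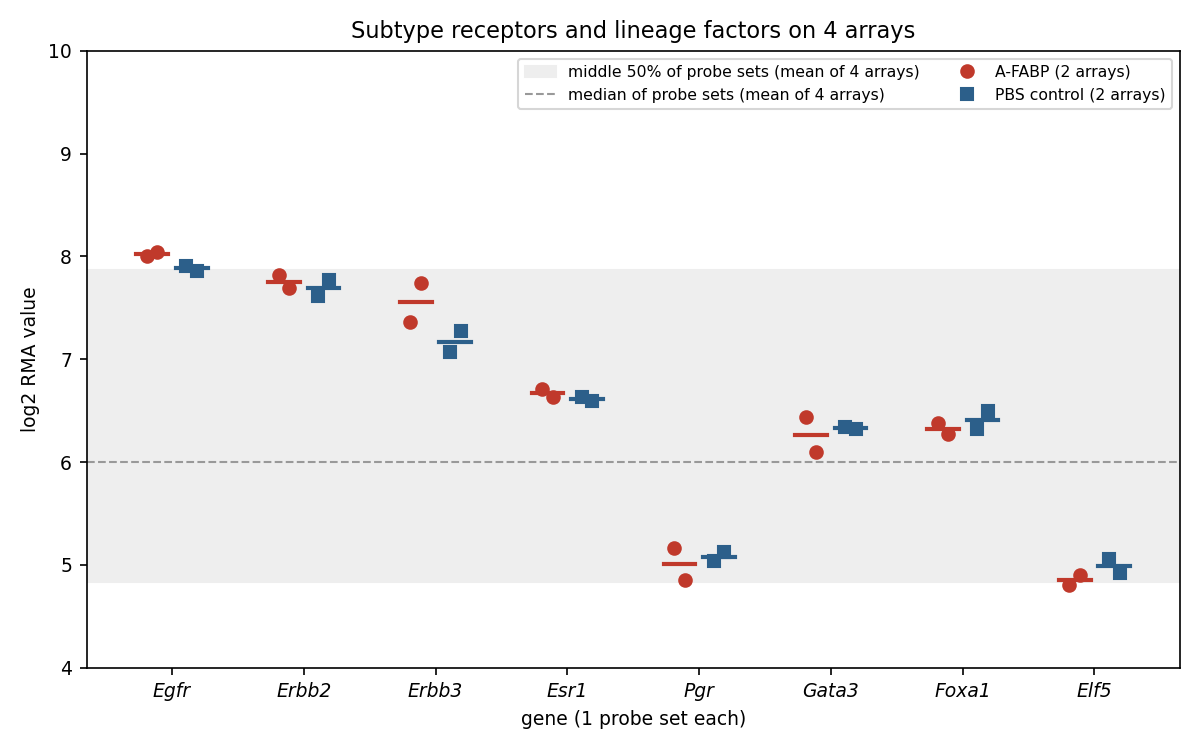
Log2 RMA values (vertical axis) of the 8 measured receptors and lineage factors on the 4 arrays, with A-FABP as circles and PBS as squares; short bars are group means, the grey band spans the lower to the upper quartile of all probe sets and the dashed line is their median. Erbb3 and Egfr show A-FABP arrays above both controls, whereas the groups of Erbb2, Pgr, Gata3 and Foxa1 overlap.

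Ligands of these receptors were measured for 10 of the 11 listed, Areg being the one without a probe set of its own. None was called, and 2 had an unadjusted p under 0.05, both lower, where 8.24% of all genes were lower by that measure and 4.81% higher. Epgn, which encodes the EGFR ligand epigen, was dim at 4.49 and 4.35 on the A-FABP arrays and 4.88 and 5.08 on the PBS arrays, a difference of -0.56 ± 0.11 (SE). Tgfa, which encodes TGF-alpha, lay at 5.24 and 5.26 with A-FABP against 5.46 and 5.65, a difference of -0.31 ± 0.10 (SE). Both lay below the median of their arrays, and their limma adjusted p was 0.296 and 0.319. Nrg2, a neuregulin, lay at 7.35 and 7.33 against 7.20 and 7.17, a difference of 0.15 ± 0.08 (SE). The list's median difference was -0.12, beside -0.13 for the medians of probe sets as bright as its members and -0.01 for all genes. It was -0.04 after cyclic loess, -0.05 after median centring and -0.07 after repeated quantile normalization. With dim genes filtered out it was 0.05. Ereg (epiregulin) and Hbegf (heparin-binding EGF), named after their values were seen, were the ligand genes above the upper quartile on all arrays, with mean levels of 11.43 and 9.62. Their differences were -0.02 (95% CI -0.31 to 0.26) and -0.16 (95% CI -0.41 to 0.08). The other, dimmer probe set of Ereg had a mean level of 7.80, above the median on all arrays, and a difference of -0.06.

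Partners, adaptors and negative regulators of ERBB signalling were mostly bright, 14 of 16 being above the upper quartile on all arrays. The A-FABP arrays both exceeded the controls in 13 of the 16, an order found in 26.0% of all genes, and both fell short of them in 0. That share covers genes of every brightness. Differences varied with brightness, and the share among genes as bright as these was not counted. Their median difference was small, 0.06, and probe sets of similar brightness had medians around 0.05. Pik3ca, the catalytic subunit of PI3-kinase that ERBB3 recruits through its regulatory subunit, lay at 10.92 and 10.94 on the A-FABP arrays and at 10.71 and 10.72 on the PBS arrays. Its difference was 0.21 ± 0.08 (SE; limma adjusted p = 0.331), well above the gaps between its replicates. The gene was named for the lowest unadjusted p in the list, a choice that favours such small gaps. Spred1, an inhibitor of RAS-ERK signalling, lay at 0.20 ± 0.08 (SE) and Socs5, which promotes EGFR turnover, at 0.19 ± 0.11 (SE; 0.07 without A-FABP replicate 1). None of the 16 genes had an unadjusted p under 0.05 and none was called. The list median was 0.12 after median centring, 0.02 after repeated quantile normalization and 0.015 after cyclic loess.

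Esr1 showed close values on the 4 arrays, at 6.71 and 6.64 on the A-FABP arrays and at 6.63 and 6.60 on the PBS arrays. All 4 were above the array medians and below the upper quartiles. The A-FABP arrays lay above the controls by a margin of less than 0.01 at the nearest pair. The difference was 0.06 ± 0.08 (SE; 95% CI -0.17 to 0.28; limma adjusted p = 0.760), where probe sets of similar brightness had a median of -0.07. Pgr was dim, at 5.17 and 4.86 on the A-FABP arrays and at 5.04 and 5.13 on the PBS arrays, below the median on every array. Its groups overlapped, since the A-FABP arrays lay on either side of both controls. The difference was -0.07 ± 0.14 (SE; 95% CI -0.46 to 0.32; limma adjusted p = 0.832). It turned to 0.09 without A-FABP replicate 2 and to 0.04 after cyclic loess, a normalization that removes trends with brightness.

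Of the steroid receptors and cofactors listed, 12 of 15 were measured. Esr2, which encodes ERβ, lay at 6.51 and 6.68 on the A-FABP arrays and at 6.52 and 6.62 on the PBS arrays, with overlapping groups and a difference of 0.03 (95% CI -0.27 to 0.32). Esrrg, an orphan receptor related to ERα, lay at 6.25 and 6.43 against 6.67 and 6.66, a difference of -0.33 ± 0.10 (SE; limma adjusted p = 0.304). At the probe sets standing for the 12 genes, Esrrg was the 1 with an unadjusted p under 0.05. That share is close to the 8.24% of all genes that were lower by that measure. Nrip1, a corepressor of nuclear receptors and an oestrogen target, was bright and lay at 0.17 ± 0.08 (SE). Nr3c2, the mineralocorticoid receptor gene, lay at -0.28 ± 0.19 (SE), a value that was -0.03 without A-FABP replicate 2. Its other, dimmer probe set lay at -0.43 ± 0.08 (SE; 95% CI -0.67 to -0.20). There the limma unadjusted p was 0.0074 and the adjusted p 0.296.

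Genes that respond to oestrogen or progesterone were measured for 19 of 20 listed. Pdzk1 shares its probe set with another gene and was not counted. None was called, and at an unadjusted p under 0.05 there were 5 lower and 0 higher, where 8.24% and 4.81% of all genes were. Stc2, a secreted glycoprotein gene induced by oestrogen, lay at 5.96 and 5.96 on the A-FABP arrays and at 6.35 and 6.67 on the PBS arrays, a difference of -0.55 ± 0.14 (SE). Ret, a receptor tyrosine kinase gene, lay at -0.41 ± 0.10 (SE) and Calcr, the calcitonin receptor gene, at -0.39 ± 0.12 (SE). These 3 genes were named for the lowest unadjusted p in the list, a choice that favours separated groups. In all 3 the A-FABP group did not overlap the controls. Groups were apart, in either direction, in 53.46% of all genes. The limma adjusted p of the 3 genes ran from 0.296 to 0.303. The remaining 2 of the 5, named after their values were seen, were Tnfsf11, the progesterone-induced paracrine factor RANKL (-0.42), and Myb (-0.43). The other, dimmer probe set of Myb lay at 0.0046 (95% CI -0.33 to 0.34). Greb1, a standard reporter of ERα activity, lay at 5.99 and 6.11 against 6.12 and 6.25, a difference of -0.13 (95% CI -0.41 to 0.14), close to the median of -0.13 for probe sets of its brightness. The list's median was -0.09, beside -0.12 for the medians at its members' brightness.

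The prolactin pathway could be followed only around its receptor. All 19 listed genes were measured and 0 were called. At an unadjusted p under 0.05, 4 were lower and 0 higher, where 8.24% and 4.81% of all genes were. The milk protein genes named here were dim. Csn2, which encodes β-casein, lay at 3.54 and 3.44 on the A-FABP arrays and at 3.76 and 3.44 on the PBS arrays, below the lower quartile on every array, with a difference of -0.11 (95% CI -0.51 to 0.28). Wap, the whey acidic protein gene, lay at -0.40 ± 0.15 (SE), at 5.45 and 5.30 against 5.62 and 5.93, and at -0.24 without PBS control replicate 2. The 4 lower genes were Csn1s2b and Csn3, which encode caseins, at -0.30 ± 0.08 and -0.30 ± 0.09 (SE), Ltf, the lactoferrin gene, at -0.44 ± 0.14 (SE; -0.27 without A-FABP replicate 2), and Cish, a STAT5-induced feedback inhibitor named after its values were seen, at -0.33 ± 0.11 (SE). Limma adjusted p-values of these genes ran from 0.298 to 0.319. The other, dimmer probe set of Cish lay at -0.53 ± 0.11 (SE; 95% CI -0.84 to -0.21). Of the 19 genes 12 lay below the array median on every array, 7 of them below the lower quartile, and 4 above the upper quartile. Mfge8 and Xdh, named after their values were seen, had mean levels of 12.35 and 10.98.

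The luminal transcription factors had small differences and, except for Elf5, overlapping groups. Gata3 lay at 6.44 and 6.10 on the A-FABP arrays and at 6.34 and 6.32 on the PBS arrays. The controls fell between the A-FABP arrays, which differed from each other by 0.34. The difference was -0.06 ± 0.14 (SE; 95% CI -0.46 to 0.34; limma adjusted p = 0.855). It was 0.11 without A-FABP replicate 2. The other probe set of Gata3 alone lay at 6.20 and 6.40 against 6.14 and 6.39, a difference of 0.04 (95% CI -0.35 to 0.42), so the 2 probe sets gave opposite signs within overlapping intervals.

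Foxa1, a pioneer factor that opens chromatin for ERα, lay at 6.38 and 6.27 on the A-FABP arrays and at 6.32 and 6.50 on the PBS arrays. All 4 values were above the array medians and the groups overlapped. The difference was -0.08 ± 0.11 (SE; 95% CI -0.39 to 0.22; limma adjusted p = 0.727). Elf5 was dim, at 4.81 and 4.91 on the A-FABP arrays and at 5.06 and 4.92 on the PBS arrays. Its A-FABP arrays lay below both controls, by 0.01 at the nearest pair. The difference was -0.13 ± 0.10 (SE; 95% CI -0.41 to 0.14; limma adjusted p = 0.551), and probe sets of its brightness also had a median difference of -0.13.

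Among 20 relatives and partners of these factors (GATA, ETS and FOX genes and the GATA cofactors Zfpm1 and Zfpm2), 0 were called. At an unadjusted p under 0.05, 3 were lower and 0 higher, where 8.24% and 4.81% of all genes were. Foxo1, a forkhead factor restrained by PI3-kinase signalling, lay at 6.61 and 6.45 on the A-FABP arrays and at 6.88 and 7.08 on the PBS arrays, a difference of -0.45 ± 0.12 (SE; limma adjusted p = 0.296). Its other probe set lay at -0.08 (95% CI -0.33 to 0.17). Gata4 lay at -0.47 ± 0.13 (SE) and Gata5 at -0.24 ± 0.08 (SE), both encoding factors of heart and gut development; Gata4 lay above the array medians and Gata5 below them. The list's median was -0.04, and 0.02 after median centring.

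**Figure D2:**
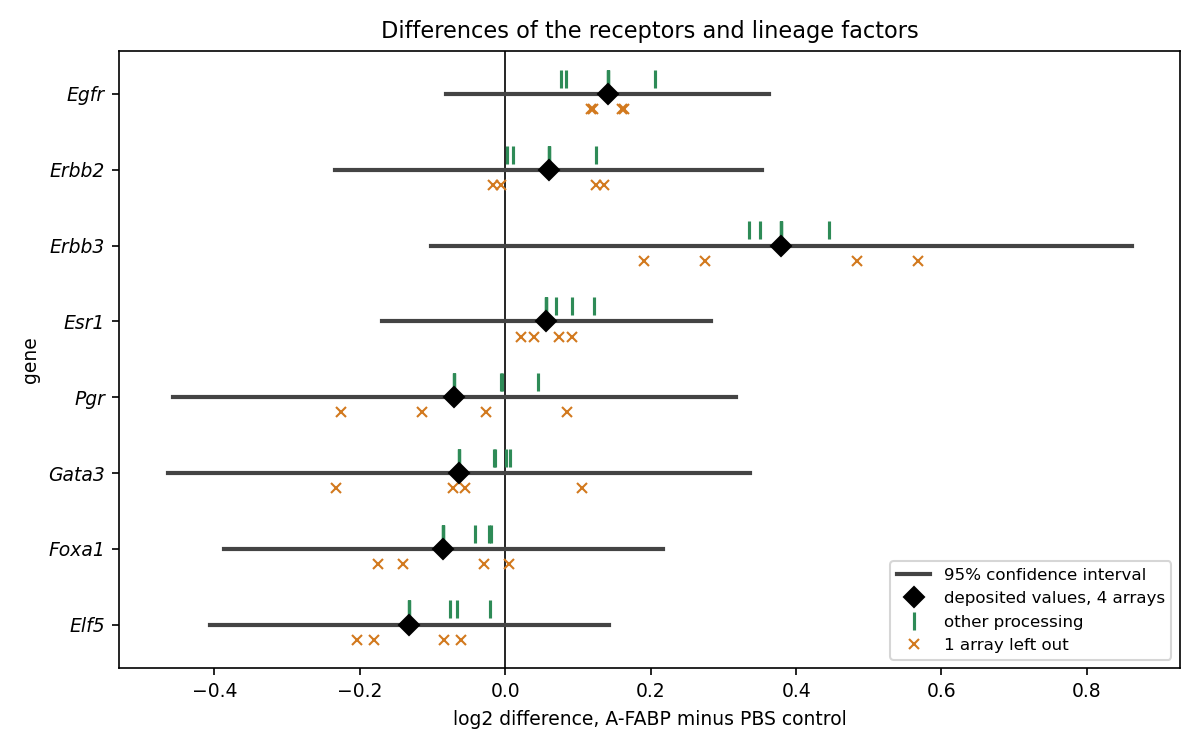
Log2 difference between A-FABP and PBS (horizontal axis) for the 8 genes: diamonds are the fit of 4 arrays, lines its 95% confidence intervals, ticks the same gene under other processing and crosses the fits with 1 array left out. Every interval includes 0, and Erbb3 has the highest value, 0.38, with an interval from -0.10 to 0.86.

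Over the 8 genes, 4 differences lay above 0 and 4 below, with a median of -0.0034 beside -0.01 for all 22180 genes. None had an unadjusted p under 0.05. The A-FABP arrays both exceeded the controls in 3 of the 8 (Egfr, Erbb3 and Esr1), an order found in 26.0% of all genes, and both fell short of them in 1 (Elf5), an order found in 27.5%. Across the array, differences varied with brightness, without a steady rise. The median difference was -0.0021 for genes with a mean level below 4, -0.11 between 4 and 5, -0.15 between 5 and 6, -0.10 between 6 and 7, 0.09 between 7 and 8, 0.09 between 8 and 9, 0.05 between 9 and 11, and 0.01 above 11. In the values as deposited, the dimmer Pgr, Gata3, Foxa1 and Elf5 lay below 0 and the brighter Egfr, Erbb2 and Erbb3 above it, while Esr1 (mean 6.64) lay above 0 in a range whose median was below it. The signs of Pgr, Gata3, Foxa1 and Erbb2 turned under at least 1 alternative (with arrays left out, or, for Pgr and Gata3, another normalization), and those of Egfr, Erbb3, Esr1 and Elf5 under none. With an array left out Esr1 ran from 0.02 to 0.09 and Elf5 from -0.20 to -0.06, and under other processing Esr1 reached 0.12 and Elf5 -0.02. Set against probe sets of similar brightness, 7 of the 8 genes lay between -0.03 and 0.13, and Erbb3 lay 0.31 above its median. What produced the relation to brightness was not tested.

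**Figure D3:**
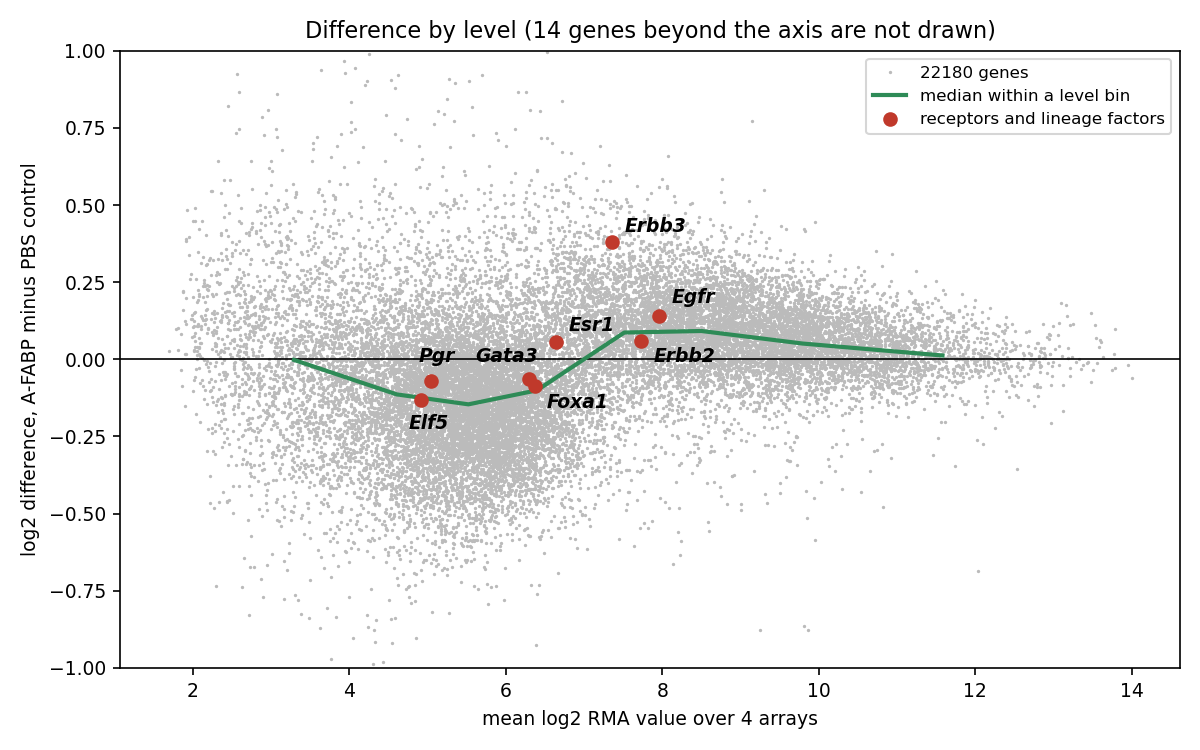
Log2 difference between A-FABP and PBS (vertical axis) against mean log2 RMA value over 4 arrays (horizontal axis) for 22180 genes (grey), with the median of each brightness bin as a line and the 8 receptors and lineage factors as large points; 14 genes beyond a difference of 1 in either direction are not drawn. Erbb3, at 0.38, stands above the line, and the other 7 genes lie near it.

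Markers of the luminal and the basal lineage were read in the same cells. Of 26 luminal genes 6 were above the upper quartile on all arrays and 8 below the median on all. Krt8, a keratin of luminal cells, was bright at 8.76 and 8.85 on the A-FABP arrays and at 8.83 and 8.74 on the PBS arrays. Its partner keratin gene Krt18 lay near the array median, at 6.04 and 5.84 against 6.04 and 6.12, and lower at its other probe set, at 5.00 to 5.31. Epcam, an epithelial adhesion gene, was dim at 4.45 and 4.85 against 4.79 and 5.05. Cdh1, which encodes E-cadherin, lay at 6.24 and 6.20 against 6.39 and 6.32, and at 4.89 to 5.09 at its other probe set. On the basal side 5 of 22 measured genes were above the upper quartile on all arrays and 6 below the median on all. Sox9 and Itga6, named after their values were seen, had mean levels of 12.15 and 11.53. Krt14 lay at 5.30 and 5.35 on the A-FABP arrays and at 5.38 and 5.83 on the PBS arrays. Trp63, the master factor of basal cells, lay at 5.28 and 5.33 against 5.34 and 5.61. Krt14 and Trp63 were both below the array medians. Vim, which encodes the mesenchymal filament vimentin, was near the top of the scale, at 13.92 and 13.95 on the A-FABP arrays and 13.95 and 13.95 on the PBS arrays. Krt5 shares its probe set with Krt6a and was not counted.

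No gene of these lineage lists was called. Of the 26 luminal genes 1 was higher and 1 lower at an unadjusted p under 0.05, not above the shares of all genes (4.81% higher and 8.24% lower). Krt23, a keratin, lay at 6.97 and 6.91 on the A-FABP arrays and at 6.30 and 6.18 on the PBS arrays, a difference of 0.70 ± 0.09 (SE; limma adjusted p = 0.296). Tfap2b, an AP-2 transcription factor gene, was dim and lay at -0.35 ± 0.12 (SE), and Cldn7, a tight junction gene, at -0.42 ± 0.18 (SE). Without A-FABP replicate 2 Tfap2b lay at -0.22, and without PBS control replicate 1 Cldn7 lay at -0.19. The list median was -0.04, and 0.02 after median centring. Of the 22 measured basal genes, 3 were lower and 0 higher at that threshold, beside the same shares of all genes: the P-cadherin gene Cdh3 (-0.40 ± 0.11 SE), the keratin gene Krt15 (-0.34 ± 0.11 SE) and Sox10 (-0.43 ± 0.14 SE). The A-FABP arrays both fell short of the controls in 12 of the 22, an order found in 27.5% of all genes, and both exceeded them in 3. The share among genes of matching brightness was not counted. The basal list had a median of -0.11, beside -0.13 for the medians of probe sets as bright as its members. The list median was -0.04 after median centring, -0.04 after cyclic loess and -0.01 with dim genes filtered out. Krt8 lay at 0.02 (95% CI -0.24 to 0.27) and turned to -0.05 after cyclic loess and -0.06 after repeated quantile normalization. Vim lay at -0.02 (95% CI -0.23 to 0.20) and turned to 0.05 after median centring and 0.03 after cyclic loess. The other probe set of Vim, with a mean level of 11.95, lay at -0.26 ± 0.09 (SE; 95% CI -0.50 to -0.02). Its A-FABP arrays both lay below the controls, with a limma unadjusted p of 0.042 and adjusted p of 0.318.

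**Figure D4:**
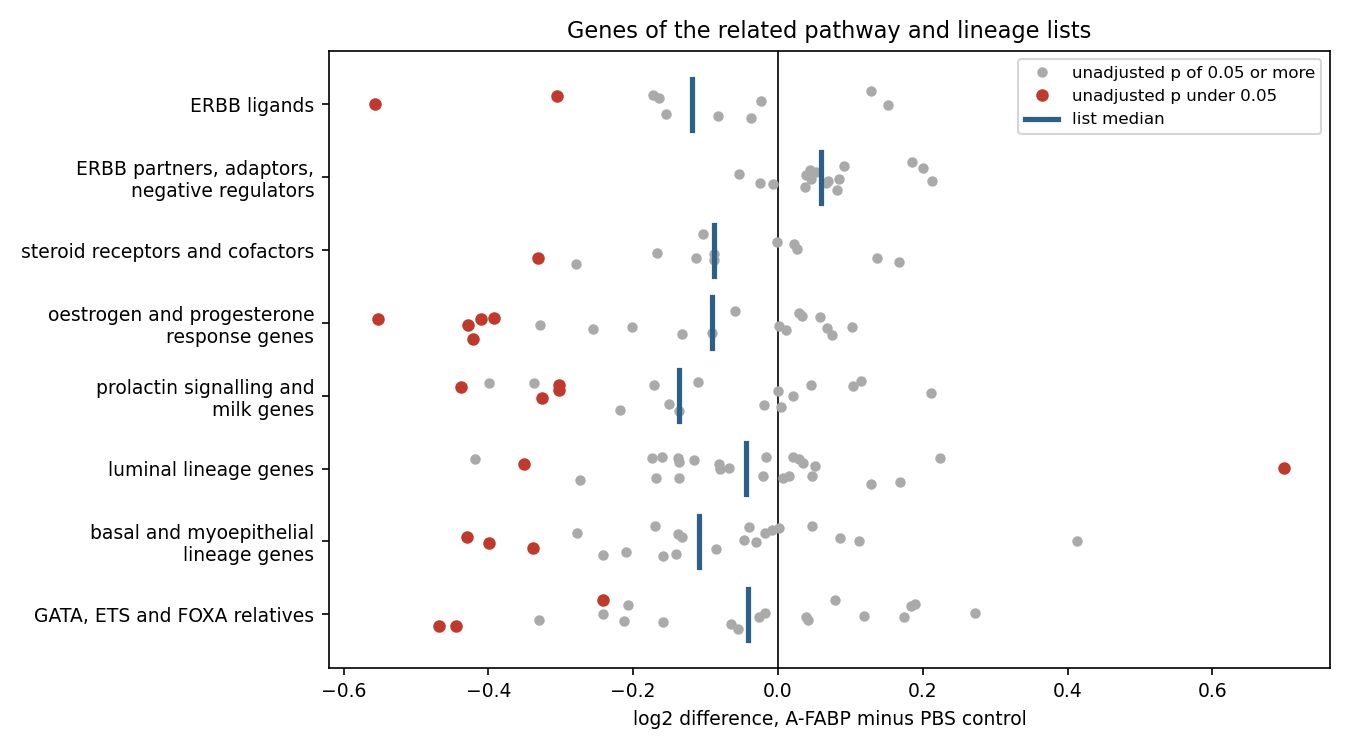
Log2 difference between A-FABP and PBS (horizontal axis) for each measured gene of the 8 related lists (rows), with list medians as bars and genes at an unadjusted p under 0.05 as larger points. Krt23, at 0.70, is the one gene past that threshold on the higher side; in the values as deposited, the ERBB partners are the one list whose median, 0.06, lies above 0.

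Markers of other cell types were also read. The RNA came from a single carcinoma line, so these genes are given as transcripts in that RNA, not as counts of other cells. Ptprc, the pan-leukocyte gene, was dim at 3.997 and 3.996 on the A-FABP arrays and at 4.58 and 4.32 on the PBS arrays, a difference of -0.45 ± 0.12 (SE; limma adjusted p = 0.296). Pecam1, an endothelial gene, lay at 5.77 and 5.74 against 5.83 and 5.90, and Adipoq, an adipocyte gene, at 5.42 and 4.97 against 5.17 and 5.05. Both lay below the array median on every array. Pdgfra, listed as a fibroblast marker, was bright at 11.19 and 11.21 against 11.22 and 11.16, with a difference of 0.01 (95% CI -0.21 to 0.23). Also bright among these lists, and named after their values were seen, were Cd68 (mean 12.79), Fabp4 (13.25) and Eng (10.37). Of the 9 fibroblast markers 2, Pdgfra among them, were above the upper quartile on all arrays. None of the marker genes was called. At an unadjusted p under 0.05 there were 2 of 9 lower among leukocyte and macrophage markers, 2 of 9 among fibroblast markers, 1 of 8 among endothelial markers and 1 of 9 among adipocyte markers, and 0 higher, beside background shares of 8.24% lower and 4.81% higher. The log2 of the summed signal of the leukocyte list was 12.80 and 12.90 on the A-FABP arrays and 12.92 and 12.93 on the PBS arrays. That of the fibroblast list was 11.83 and 11.80 against 11.82 and 11.81, that of the endothelial list 10.83 and 10.84 against 10.72 and 10.70, and that of the adipocyte list 13.40 and 13.36 against 13.28 and 13.27. Each of the leukocyte, endothelial and adipocyte sums holds 1 bright gene (Cd68, Eng and Fabp4), and most members of the 3 lists lay below 0 (6 of 9, 5 of 8 and 5 of 9). Whether any of these values relate to the receptor values was not tested.

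**Figure D5:**
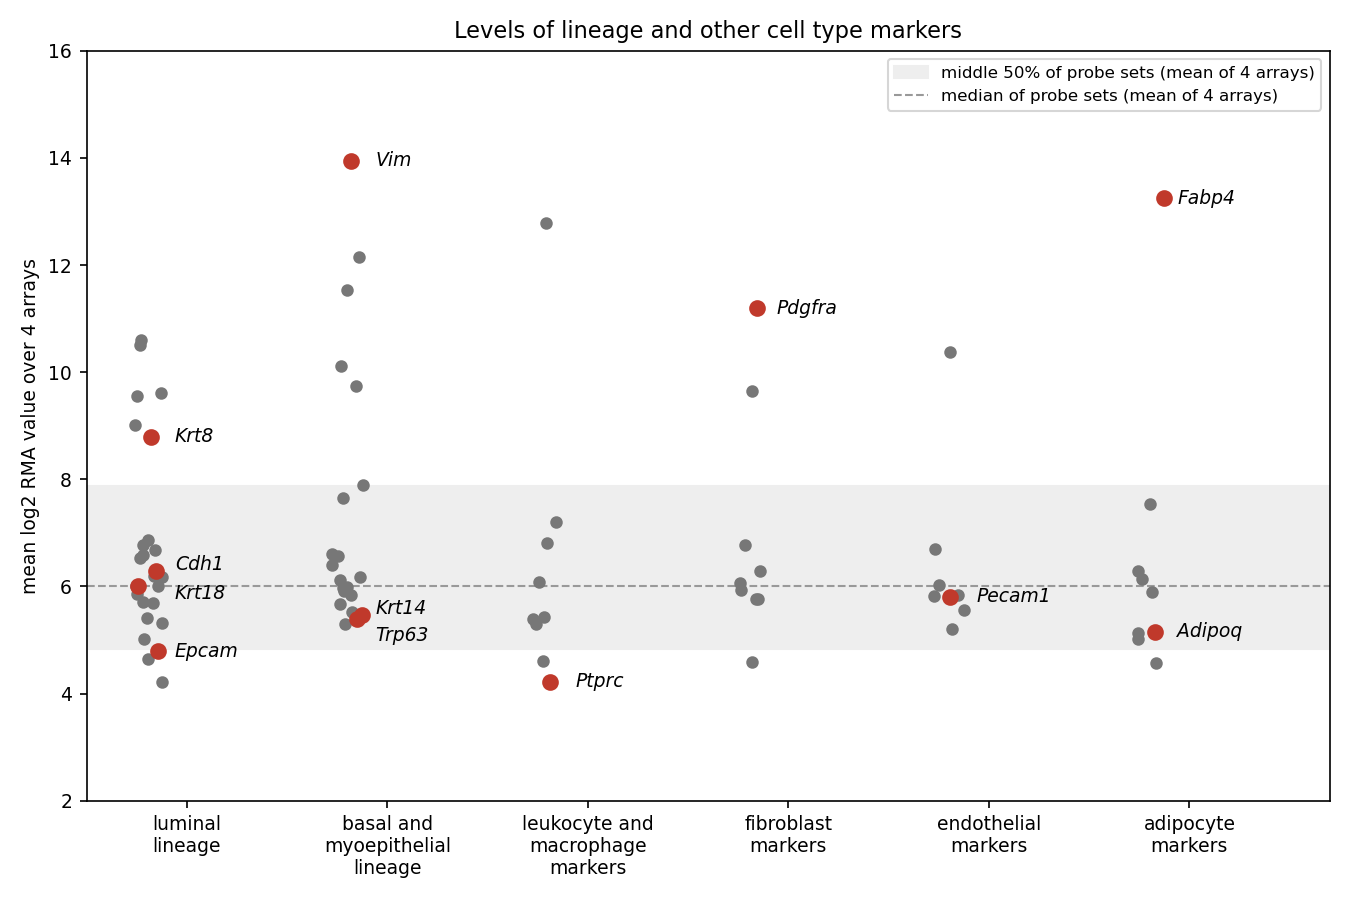
Mean log2 RMA value over 4 arrays (vertical axis) of lineage genes and of markers of other cell types (columns), with the grey band from the lower to the upper quartile of all probe sets, the dashed line at their median and selected genes in colour. Krt8, Vim, Pdgfra and Fabp4 lie above the band, Epcam and Ptprc at or below its lower edge.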

How the data were processed

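Expression was measured on 4 single-colour arrays of biotin-labelled RNA, 2 per group. The authors deposited 1 log2 value per probe set and array; the submitters' processing notes name RMA and Partek 6.6. The labels name no genome build, and coordinates were left out. Differences in RMA values from arrays can be compressed at both ends of the brightness scale, which was not examined here. The number of arrays limits the precision.

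Of 41345 probe sets, 23521 named 1 gene in the platform annotation, 1814 several and 16010 none; 1082 genes had more than 1 probe set. The fit used lmFit and eBayes of limma 3.58.1 under R 4.3.3 on the deposited values, with 2 residual and 1.91 prior degrees of freedom and two-sided p-values. The fit was tested on simulated data. Members and lists were chosen with earlier results of these data known. Named list genes were the 3 with the lowest unadjusted p per related list plus fixed lineage markers, except where stated. Alternatives were 3 normalizations, a brightness filter, other eBayes settings, a replicate block, omission of 808 repeated rows, averaging of a gene's probe sets, and leaving out each array.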

Additional observations from a re-analysis of the deposited data

How the results depend on the processing

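Under each of the 12 alternatives 0 probe sets were called by limma, with 3489 to 6876 at an unadjusted p under 0.05. Adjusted p-values of the 8 receptors and lineage factors ran from 0.276 to 0.997 across them. Erbb3 ranged from 0.19 to 0.57 with an array left out and from 0.34 to 0.44 under other processing, and Egfr from 0.12 to 0.16 and from 0.08 to 0.21. Signs turned as follows, and the cause was not tested. After cyclic loess Pgr lay at 0.045, Gata3 at 0.0065, Krt8 at -0.051, Vim at 0.028 and Pdgfra at -0.021. After median centring Gata3 lay at 0.0015, Vim at 0.048 and Ereg at 0.041, and after repeated quantile normalization Krt8 at -0.061 and Pdgfra at -0.011. With each array left out in turn, values ran from -0.23 to 0.085 for Pgr, -0.018 to 0.14 for Erbb2, -0.23 to 0.11 for Gata3, -0.18 to 0.0058 for Foxa1, -0.033 to 0.063 for Krt8, -0.27 to 0.046 for Csn2, -0.062 to 0.12 for Esr2, -0.020 to 0.037 for Pdgfra, -0.14 to 0.31 for Adipoq and -0.12 to 0.067 for Ereg. Same-numbered arrays did not deviate together (correlation of deviations -0.009 across probe sets). With the replicate number as a block, which leaves 1 residual degree of freedom, 0 probe sets were called, 5464 had an unadjusted p under 0.05, and Erbb3 lay at 0.38 with a limma adjusted p of 0.377. The brightness filter removed Pgr and Elf5, which have no value under it.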

Other observations

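Some probe sets name a gene of interest together with others and were counted for none. One that names Gata3 with 2 further transcripts lay at 4.76 and 5.06 on the A-FABP arrays and at 5.08 and 5.15 on the PBS arrays, a difference of -0.21 (95% CI -0.58 to 0.16). One that names Krt5 and Krt6a lay at 6.31 and 6.06 against 6.42 and 6.32, a difference of -0.19 (95% CI -0.53 to 0.15).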
